A study of Homo sapiens with 8 samples.

Results

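The 34 genes described here make cholesterol and fatty acids, sense and move sterols, or switch these pathways on. They were chosen by gene name, and each of the 34 matched 1 row of the 59641 in the deposited table. Of the 34, 18 encode enzymes of sterol synthesis, 5 encode the sterol sensing proteins and SREBP transcription factors, 3 move sterols within or out of the cell, and 8 belong to fatty acid synthesis and desaturation. RNA was sequenced from HCT116 cells, an established line from a human colorectal cancer, in 4 samples given human FGF19 (hFGF19) at 100 ng/ml for 72 h and in 4 control samples given none. No culture time is given for the controls, and all results are from this single line. Whether the 4 samples of a group were separate cultures is not stated, so the spread behind each p-value may be technical. The series relates FGF19, through its receptor FGFR4, to metastasis of colorectal cancer, and the comparison below asks whether the lipid synthesis genes of these cells differed after exposure.

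Cholesterol is built from acetyl-CoA through mevalonate, farnesyl diphosphate, squalene and lanosterol, and saturated fatty acids are built from acetyl-CoA through malonyl-CoA. Both branches are switched on by the SREBP transcription factors, SREBP2 mainly acting on the sterol branch and SREBP1 mainly on the fatty acid branch. SREBPs are held in the endoplasmic reticulum with SCAP and INSIG proteins when sterols are plentiful, and are released for cleavage when sterols run low. FGF19 itself is an intestinal hormone known for lowering bile acid synthesis, the main route of cholesterol disposal, in liver.

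Messenger RNA of the lipid synthesis genes did not differ detectably between hFGF19 and control cells in either branch. At an adjusted p below 0.05, 0 of the 34 members were called higher and 0 lower (limma, Benjamini-Hochberg over 14100 genes, all 34 adjusted p = 0.9998). Among all 14100 genes tested the same rule called 0.106%, of which 14 genes (0.0993%) were higher and 1 (0.00709%) lower. At an unadjusted p below 0.05 there was 1 member, LSS, against 4.23% of all genes tested. Voom on read numbers recovered from the FPKM values also called 0 members, but the share it called over all genes is not given here. A fit with the replicate number as a block called 0 members too, and 0.149% of all genes (0.128% higher and 0.0213% lower). The fit gives an interval for each gene on its own, on the log2(FPKM + 1) scale, with no joint coverage over the 34. Adding 1 shrinks the fold of low genes. For CYP51A1, whose interval reached highest, the log2 change was 0.15 in this fit, 0.17 with 0.1 added and 0.19 with voom. The 95% confidence intervals of the 34 members ran from a fold of 0.745 to a fold of 1.25, all 34 lay within 1.5-fold either way, and 27 lay within 1.2-fold. The 7 whose intervals reached beyond 1.2-fold on 1 side were CYP51A1, MSMO1, HSD17B7, SREBF1, STARD4, ACLY and SCD. Reaching beyond depends on the estimate as well as on the width, and FDPS, within 1.2-fold, had a wider interval (-0.21 to 0.26) than CYP51A1 (-0.03 to 0.33). Bulk RNA cannot tell fewer cells of a kind from less RNA per cell, and this holds for each value below.

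**Figure D1:**
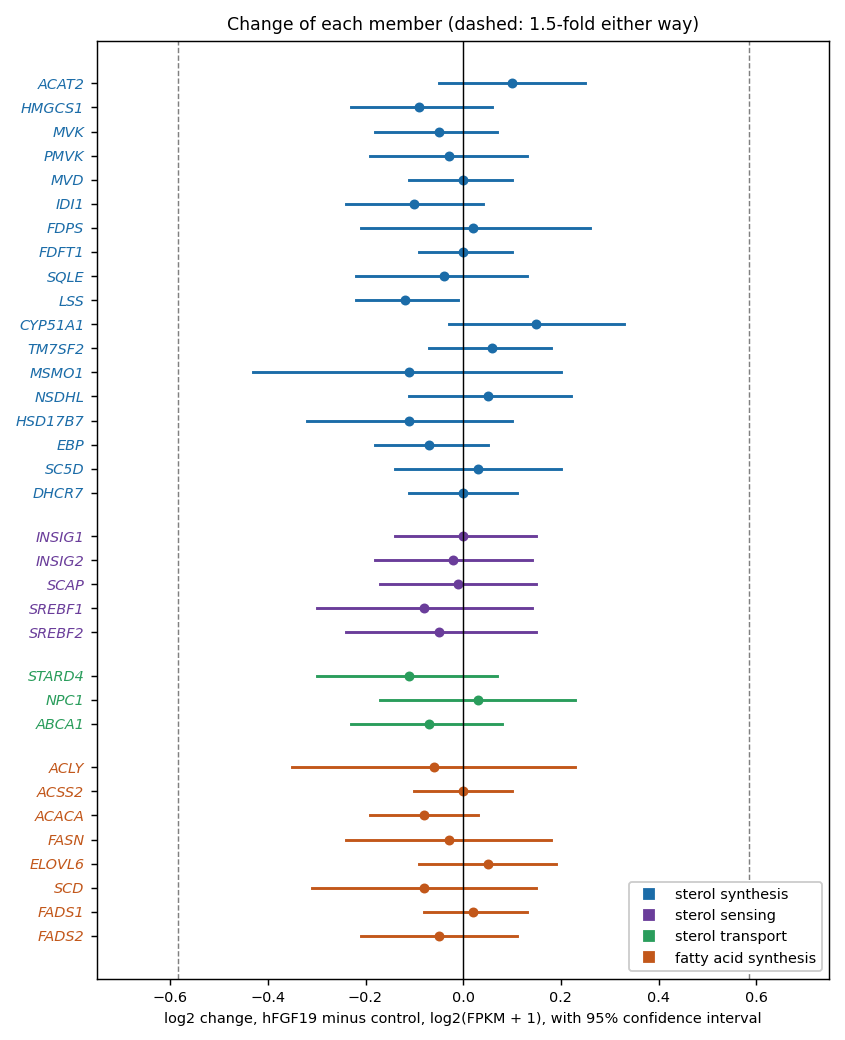
Log2 change, hFGF19 minus control, on the log2(FPKM + 1) scale (x axis) for each of the 34 genes (rows, coloured by branch), with points for the limma estimate and bars for its 95% confidence interval from 4 libraries per group. All bars stay between the dashed lines at 1.5-fold, and LSS is the 1 gene whose bar (-0.22 to -0.01) does not cross 0.

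By mean value, 12 members were higher and 22 lower in hFGF19 cells, and 64.7% of members against 56.3% of all genes tested had a lower mean. Their median log2 change was -0.03, beside -0.01 for all genes tested, and the changes ran from -0.12 to 0.15. Groups that did not overlap were seen for 2 members, CYP51A1 with all 4 hFGF19 values above the controls and LSS with all 4 below. Each is 1 gene, or 2.94% of members. Over all genes tested, 1.48% were separated upward in this way and 1.65% downward, 3.12% in all. In pairs of libraries with the same replicate number, ACAT2, CYP51A1 and TM7SF2 were higher in all 4 pairs (8.82% of members, against 6.66% of all genes). IDI1, LSS, STARD4 and ACACA were lower in all 4 pairs (11.8%, against 8.5% of all genes). The shares over pairs are close to those over all genes tested, and the separation of groups rests on 1 gene each way.

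Library totals, recovered from the FPKM steps, were lowest in hFGF19 replicate 2 (17121190 reads) and highest in hFGF19 replicate 1 (20752753 reads). A member had between 183 and 38887 reads in a library. Of 10 colorectal epithelial markers, 5 were above the filter of 1 FPKM (KRT8, KRT18, KRT19, EPCAM and CDH1), with summed levels of 2649 to 2841 FPKM in hFGF19 and 2710 to 2914 FPKM in control libraries. KRT8, the highest of the 5, had all hFGF19 values (1401 to 1432 FPKM) below all controls (1450 to 1504 FPKM) and was not called. Of all genes tested, 1.65% were separated downward. CDX1 was at 0 in all 8 libraries, and CDX2, KRT20 and VIL1 were near 0. CEACAM5 was under the filter too, at means of 0.317 FPKM in hFGF19 and 0.286 FPKM in control cells. The RNA protocol in the labels speaks of an adipose type, so adipocyte markers were also read. The adipocyte genes FABP4, ADIPOQ and LEP were at or near 0, while CFD, ADIPOR2 and PPARG, which other tissues express too, were the 3 of 10 above the filter. Summed adipocyte markers lay at 248.5 to 258.7 FPKM in hFGF19 and 250.7 to 265.4 FPKM in control libraries. Of 12 hepatocyte markers 6 were above the filter, and the summed list lay at 67.12 to 71.73 FPKM in hFGF19 and 53.32 to 61.23 FPKM in control libraries. Most of that difference lay in the fibrinogen genes FGB (19.5 ± 1.73 FPKM in hFGF19 and 14.1 ± 1.15 FPKM in control cells), FGG (13.3 ± 1.91 and 9.15 ± 1.17 FPKM) and FGA (3.76 ± 0.379 and 2.93 ± 0.219 FPKM, SD, n = 4 each), whose groups did not overlap and which were not called. Upward separation of these 3, of the 6 tested, stands against 1.48% of all genes tested. Their adjusted p was 0.1389 (FGB), 0.3926 (FGG) and 0.9998 (FGA, limma). The log2 interval of FGB was 0.26 to 0.61. APOA2 was at 0 throughout, APOA1, APOB and TTR were near 0, and the part of this list's difference in the lipid genes was not tested.

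All 34 members passed the filter, and their levels spanned a wide range. FPKM is a gene's read number scaled by its length in kilobases and by the size of its library. In the deposited values the length of each of the 34 was the mean length of its annotated transcripts in GENCODE 29, not that of its longest transcript. The ratio of the longest transcript to the length used was 1.0 for SCD and PMVK, 2.31 in the median member and 5.26 for FASN. The order of the genes therefore depends on the length chosen, while the comparison of hFGF19 with control cells within a gene does not. By FPKM, as the mean of 8 libraries, the fatty acid synthase FASN came first at 887.9, followed by ACACA at 619.6, DHCR7 at 405.0, SCD at 308.7 and FADS1 at 281.4 FPKM. With the longest transcript as length in place of the mean, SCD came first at 308.7, followed by FASN at 168.7, ACACA at 165.0, DHCR7 at 160.0 and ACLY at 114.6. FASN and ACACA differed by less than the spread of FASN between libraries on this scale. CYP51A1 was the lowest member on both, at 7.112 FPKM as deposited and at 3.457 with the longest transcript as length.

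**Figure D2:**
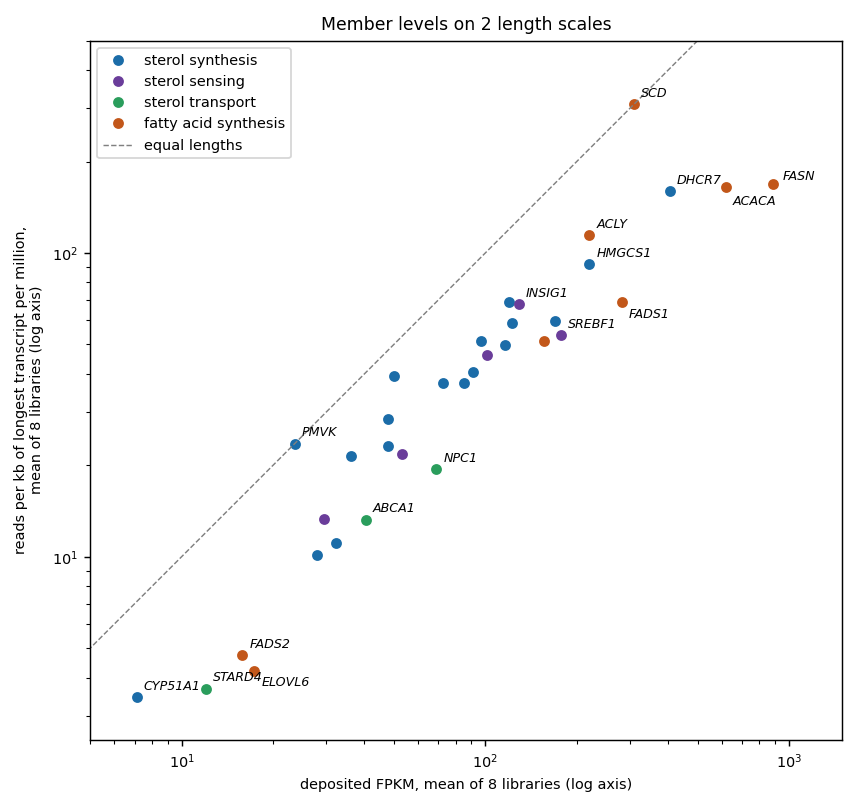
Mean level of each member over 8 libraries as deposited FPKM (x axis, log) and as the same value with the longest annotated transcript as length (y axis, log), coloured by branch, with a dashed line where both lengths are equal. SCD and PMVK lie on the line, and FASN, with a length ratio of 5.26, lies farthest below it.

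**Figure D3:**
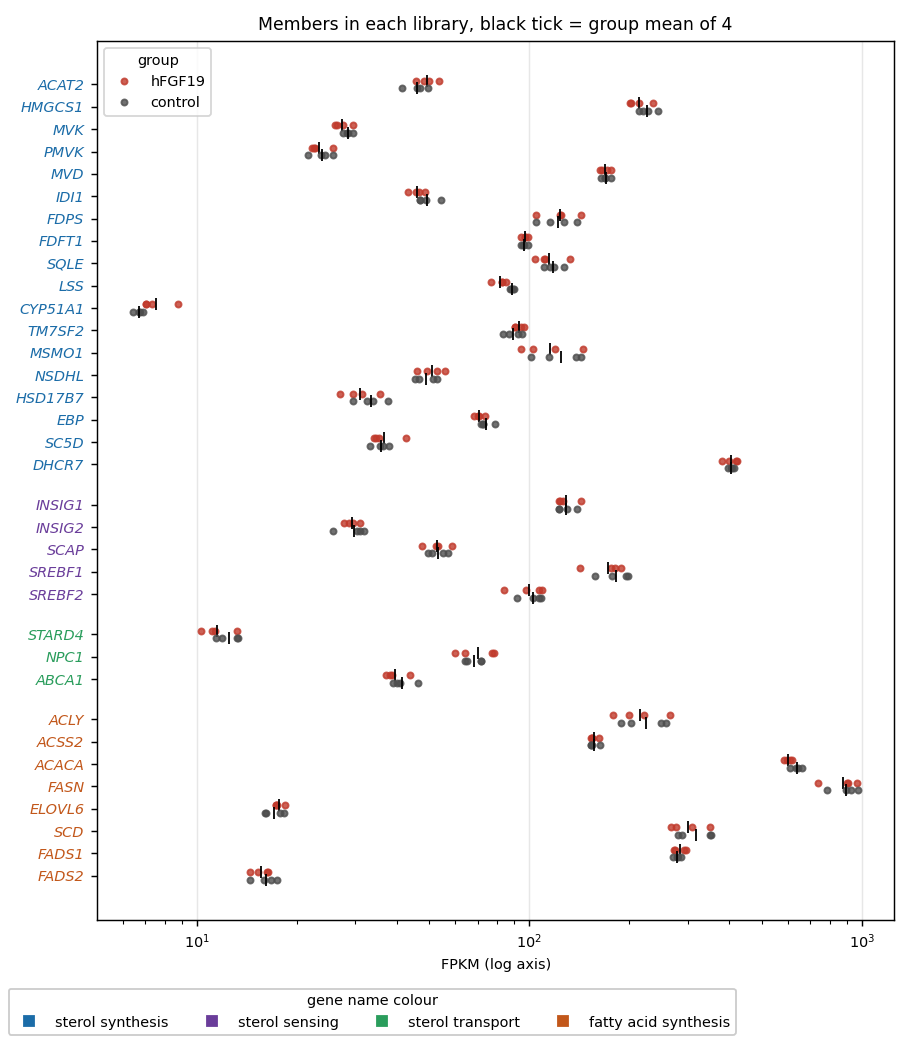
FPKM in each library (x axis, log) for the 34 genes (rows), with red points for the 4 hFGF19 libraries drawn above grey points for the 4 control libraries, and black ticks for group means. The groups overlap for all genes except LSS, lower in hFGF19 cells, and CYP51A1, higher in hFGF19 cells.

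SREBPs are known to bind sterol elements in the promoters of many of these genes, together with the factors NF-Y and Sp1. RefSeq windows from 250 bases before to 50 bases after a start were at hand for 30 of the 34 genes, as 41 windows (GRCh38.p14). Windows for ACAT2, SQLE, FDFT1 and FASN were not used here. The NF-Y box CCAAT, on either strand, was in 61% of the 41 windows, against 34.6% of all 35116 windows and 34.7% of the 14139 windows of genes tested. It was in the windows of 13 of 15 sterol synthesis genes, 5 of 7 fatty acid synthesis genes, 2 of 5 sterol sensing genes and 1 of 3 sterol transport genes. The GC box GGGCGG was in 90.2% of member windows, against 45% of all windows and 65.8% of windows of genes tested. The sterol element core CACNCCAC, on either strand, was in 19.5% of member windows, against 5.87% of all windows and 5.92% of windows of genes tested. Its stricter form CACCCCAC, whose matches are also counted under CACNCCAC, was in 4.88% against 2.79% of all windows, and was found for ABCA1 and SREBF2. The E-box CACGTG was in 14.6% against 7.26% of all windows, and against 9.22% of windows of genes tested. These matches are letters in a window, and binding was not measured.

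Windows of 6 members, picked for their role or their expression values, are printed 5′ to 3′ along the gene's strand. Whether the boxes in them bear on those values was not tested. LSS (chr21:46228725-46229024, minus strand) and CYP51A1 (chr7:92134428-92134727, minus strand) had groups that did not overlap. MSMO1 (chr4:165327419-165327718, plus strand) and NSDHL (chrX:152830813-152831112, plus strand) differed in opposite ways between libraries of different replicate number. SREBF2 (chr22:41832855-41833154, plus strand) encodes SREBP2 and SCD (chr10:100346983-100347282, plus strand) was the highest member when the longest transcript is the length. Capitals mark CCAAT or its reverse complement ATTGG, and CACNCCAC or its reverse complement. LSS has 1 CCAAT box, MSMO1 has 4, NSDHL has 5 (one pair overlapping), SCD has 2 with 1 sterol core, SREBF2 has 1 with 1 sterol core, and CYP51A1 has 0 of either in this window.
LSS promoter: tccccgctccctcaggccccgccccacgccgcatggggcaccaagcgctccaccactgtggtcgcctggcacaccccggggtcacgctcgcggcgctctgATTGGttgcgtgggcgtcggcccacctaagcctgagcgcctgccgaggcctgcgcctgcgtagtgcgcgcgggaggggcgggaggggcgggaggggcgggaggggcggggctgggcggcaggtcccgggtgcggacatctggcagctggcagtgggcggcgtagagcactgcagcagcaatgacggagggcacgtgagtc
CYP51A1 promoter: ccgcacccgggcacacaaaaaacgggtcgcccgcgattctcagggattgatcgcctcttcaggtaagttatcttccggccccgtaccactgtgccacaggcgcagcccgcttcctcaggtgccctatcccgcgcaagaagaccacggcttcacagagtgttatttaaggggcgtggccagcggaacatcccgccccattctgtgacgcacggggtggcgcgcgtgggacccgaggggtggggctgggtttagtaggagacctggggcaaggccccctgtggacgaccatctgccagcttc
MSMO1 promoter: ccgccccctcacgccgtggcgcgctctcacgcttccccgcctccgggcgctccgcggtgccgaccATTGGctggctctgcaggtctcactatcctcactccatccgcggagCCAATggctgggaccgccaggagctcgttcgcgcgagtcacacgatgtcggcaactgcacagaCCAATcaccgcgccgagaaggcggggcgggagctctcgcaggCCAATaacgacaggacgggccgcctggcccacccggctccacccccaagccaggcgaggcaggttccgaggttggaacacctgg
NSDHL promoter: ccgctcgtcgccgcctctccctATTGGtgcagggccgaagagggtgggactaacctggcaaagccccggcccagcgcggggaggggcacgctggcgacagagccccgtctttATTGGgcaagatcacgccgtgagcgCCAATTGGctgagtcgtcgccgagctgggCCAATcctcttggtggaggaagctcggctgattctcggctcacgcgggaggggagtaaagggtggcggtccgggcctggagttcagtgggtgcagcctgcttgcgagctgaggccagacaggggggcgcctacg
SREBF2 promoter: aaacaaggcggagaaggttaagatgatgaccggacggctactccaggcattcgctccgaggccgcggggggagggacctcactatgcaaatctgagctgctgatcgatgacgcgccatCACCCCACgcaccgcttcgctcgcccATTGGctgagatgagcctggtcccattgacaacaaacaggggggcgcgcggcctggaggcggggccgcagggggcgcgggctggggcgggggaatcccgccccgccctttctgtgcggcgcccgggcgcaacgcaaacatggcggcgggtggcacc
SCD promoter: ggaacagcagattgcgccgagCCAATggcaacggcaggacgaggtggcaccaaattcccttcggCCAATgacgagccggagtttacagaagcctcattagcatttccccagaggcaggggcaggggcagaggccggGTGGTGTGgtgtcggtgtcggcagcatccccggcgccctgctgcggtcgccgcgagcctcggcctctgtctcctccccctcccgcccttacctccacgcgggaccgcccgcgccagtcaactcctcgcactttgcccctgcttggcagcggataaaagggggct

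The steps of the mevalonate pathway, from acetyl-CoA to farnesyl diphosphate, had 7 members, of which 2 had a higher and 5 a lower mean in hFGF19 cells, with a median log2 change of -0.03. ACAT2, the cytosolic thiolase that joins acetyl-CoA units at the first step, was at 45.69, 49.98, 53.71 and 48.27 FPKM in hFGF19 libraries 1 to 4 and at 41.53, 49.68, 46.84 and 45.99 FPKM in control libraries 1 to 4. The groups overlapped, although each hFGF19 library lay above the control of the same number. Its log2 change of 0.10 ± 0.0694 (SE) had a 95% interval of -0.05 to 0.25 (adjusted p = 0.9998, limma). HMGCS1, the HMG-CoA synthase, was at 235.5, 200.7, 214.3 and 202.6 FPKM in hFGF19 libraries and at 228.0, 220.4, 213.4 and 243.1 FPKM in control libraries. It was higher in 2 pairs and lower in 2, the groups overlapped, and the log2 change was -0.09 with an interval of -0.23 to 0.06. The kinases MVK and PMVK, the decarboxylase MVD, the isomerase IDI1 and the farnesyl diphosphate synthase FDPS had mean levels between 23.31 and 169.2 FPKM in hFGF19 cells and between 23.84 and 169.7 FPKM in control cells. Their log2 changes lay between -0.10 (IDI1) and 0.02 (FDPS). FDPS was the most variable of these 5, with a coefficient of variation between replicates of 12.8% in hFGF19 and 12.1% in control cells.

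No source used here states the strand setting of the counting, so genes that overlap on opposite strands may share reads. ACAT2 shares 397 exon bases (9.23%) with TCP1 on the opposite strand, which had 47432 reads over 8 libraries against 13467 for ACAT2. It shares more with SOD2 (26.5%) and SOD2-OT1 (33.9%), also on the opposite strand, which had only 24 and 2 reads. HMGCS1 shares 15% with AC114947.2 (191 reads) and IDI1 14.8% with IDI2-AS1 (25 reads), both antisense. FDPS shares 18.6% of its exon bases with the antisense gene RUSC1-AS1, which had 3229 reads against 17685 for FDPS. MVK shares 4.72% with MMAB on the opposite strand, which had 5334 reads against 6217 for MVK.

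From squalene to cholesterol there were 11 members, 6 with a higher and 5 with a lower mean in hFGF19 cells, and the median log2 change was 0.0. SQLE, the squalene epoxidase that commits squalene to sterols, was at 132.6, 104.0, 111.0 and 111.4 FPKM in hFGF19 libraries and at 118.6, 115.5, 110.5 and 127.6 FPKM in control libraries. Its groups overlapped, with the highest and the lowest of the 8 values both in hFGF19 libraries. LSS, which closes squalene epoxide into lanosterol, was at 85.14, 82.86, 76.72 and 82.62 FPKM in hFGF19 libraries and at 89.80, 87.91, 87.38 and 89.57 FPKM in control libraries. Each hFGF19 value lay below each control value. The log2 change of LSS was -0.12 ± 0.0488 (SE), with an interval of -0.22 to -0.01, an unadjusted p of 0.039 and an adjusted p of 0.9998 (limma). With the replicate block its adjusted p was 0.700 (limma), the lowest of any member in that fit.

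CYP51A1, the lanosterol demethylase, was at 8.772, 7.039, 7.017 and 7.331 FPKM in hFGF19 libraries and at 6.742, 6.871, 6.441 and 6.686 FPKM in control libraries. All 4 hFGF19 values lay above all 4 controls, with the first well above the other 3. The log2 change was 0.15 ± 0.0811 (SE), with an interval of -0.03 to 0.33 (adjusted p = 0.9998, limma), and it was 0.08 without hFGF19 replicate 1. CYP51A1 rests on few reads, from 183 in a library, and on 1663 over all 8. AC000120.2, annotated on the same strand, covers 79.4% of its exon bases and had 2 reads. The part of that overlap in the low level of CYP51A1 was not tested.

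MSMO1, the sterol C4-methyl oxidase, was the member that varied most between replicates, by 19.5% in hFGF19 and 15.8% in control cells. It was at 145.3, 102.7, 94.16 and 119.3 FPKM in hFGF19 libraries and at 138.4, 101.4, 114.4 and 142.7 FPKM in control libraries. The groups overlapped almost fully, and in both groups libraries 1 and 4 were higher than libraries 2 and 3. Its log2 change of -0.11 ± 0.141 (SE) carried the widest interval of any member, -0.43 to 0.20 (adjusted p = 0.9998, limma). It ranged from -0.23 without hFGF19 replicate 1 to -0.02 without hFGF19 replicate 3. The remaining enzymes of this stretch, FDFT1, TM7SF2, NSDHL, HSD17B7, EBP, SC5D and DHCR7, had log2 changes between -0.11 (HSD17B7) and 0.06 (TM7SF2). FDFT1, the squalene synthase, varied by 1.95% in hFGF19 and 2.02% in control cells, and its interval of -0.09 to 0.10 was among the narrowest. DHCR7, which acts in the last steps to cholesterol, was the highest sterol enzyme, at 405.4 ± 19.0 FPKM in hFGF19 and 404.7 ± 6.67 FPKM in control cells (SD, n = 4 each). HSD17B7 has a transcribed pseudogene, HSD17B7P2, with 1329 reads against its own 5108, and reads of the pair may be exchanged.

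The genes that sense sterols and encode SREBPs had 1 higher and 4 lower means in hFGF19 cells and a median log2 change of -0.02. SREBF2, which encodes SREBP2, was at 109.6, 97.56, 84.24 and 107.1 FPKM in hFGF19 libraries and at 108.6, 91.93, 102.8 and 107.1 FPKM in control libraries. The groups overlapped, with hFGF19 replicate 3 the lowest of the 8. SREBF1, which encodes SREBP1, was at 189.4, 175.8, 142.0 and 181.3 FPKM in hFGF19 libraries and at 195.1, 157.2, 177.2 and 198.1 FPKM in control libraries. Here too hFGF19 replicate 3 was the lowest library, and the groups overlapped. The log2 changes were -0.05 (interval -0.24 to 0.15) for SREBF2 and -0.08 (interval -0.30 to 0.14) for SREBF1. INSIG1, an endoplasmic reticulum anchor for SCAP and itself an SREBP target, was at 143.2, 123.5, 122.5 and 126.5 FPKM in hFGF19 libraries and at 130.0, 122.6, 123.1 and 138.9 FPKM in control libraries. Its group means of 128.9 and 128.6 FPKM differed by far less than the spread between libraries, and its log2 interval was -0.14 to 0.15. INSIG2, the second anchor, was at 30.88, 27.70, 29.60 and 28.68 FPKM in hFGF19 libraries and at 30.99, 30.30, 25.77 and 31.87 FPKM in control libraries. Its highest and lowest values were both in controls. SCAP, the escort that carries SREBPs to the Golgi, was at 52.90 ± 4.50 FPKM in hFGF19 and 53.12 ± 3.27 FPKM in control cells (SD, n = 4 each). Of these genes SREBF1 shares 6.92% of its exon bases with RAI1 on the opposite strand.

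Among the 3 sterol transport genes 1 had a higher and 2 a lower mean in hFGF19 cells, with a median log2 change of -0.07. ABCA1, which exports cholesterol to apolipoprotein A-I and is induced when sterols are plentiful, was at 36.97, 38.65, 43.71 and 38.15 FPKM in hFGF19 libraries and at 39.00, 46.13, 40.02 and 40.83 FPKM in control libraries. The groups overlapped, with hFGF19 replicate 3 above 3 of the 4 controls. Its log2 change was -0.07 with an interval of -0.23 to 0.08. STARD4, a soluble sterol carrier, had the lowest level of the 3, at 11.50 ± 1.20 FPKM in hFGF19 and 12.48 ± 0.932 FPKM in control cells (SD, n = 4 each), a log2 change of -0.11. NPC1, which releases cholesterol from lysosomes, was at 69.91 ± 9.35 FPKM in hFGF19 and 68.06 ± 4.05 FPKM in control cells (SD, n = 4 each), a log2 change of 0.03.

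The fatty acid synthesis genes had 2 higher and 6 lower means in hFGF19 cells and a median log2 change of -0.04. ACSS2, which makes acetyl-CoA from acetate, was among the steadiest, at 154.4, 154.9, 161.6 and 153.6 FPKM in hFGF19 libraries and at 154.9, 153.6, 163.5 and 153.1 FPKM in control libraries. Replicate 3 was the highest library in both groups, and the log2 interval of ACSS2 was -0.10 to 0.10. ACACA, the acetyl-CoA carboxylase that makes malonyl-CoA, was at 618.8, 584.9, 595.0 and 609.7 FPKM in hFGF19 libraries and at 662.2, 641.9, 607.5 and 636.5 FPKM in control libraries. It was lower in each of the 4 pairs, but control replicate 3 lay within the hFGF19 range. The log2 change of ACACA was -0.08 ± 0.0484 (SE), with an interval of -0.19 to 0.03 (adjusted p = 0.9998, limma).

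FASN was at 902.5, 910.4, 736.5 and 969.6 FPKM in hFGF19 libraries and at 975.5, 784.6, 929.6 and 894.5 FPKM in control libraries. It was low in hFGF19 replicate 3 and control replicate 2, and its groups overlapped. SCD, the desaturase that makes monounsaturated fatty acids, was at 349.5, 275.4, 266.0 and 308.7 FPKM in hFGF19 libraries and at 349.1, 279.9, 288.3 and 352.9 FPKM in control libraries. As with MSMO1, libraries 1 and 4 were the higher ones in both groups. The log2 changes were -0.03 (interval -0.24 to 0.18) for FASN and -0.08 (interval -0.31 to 0.15) for SCD. FADS1, a desaturase of polyunsaturated fatty acids, was at 295.9, 274.6, 273.0 and 291.1 FPKM in hFGF19 libraries and at 286.5, 277.5, 271.5 and 280.9 FPKM in control libraries. The elongase ELOVL6 was at 17.48, 17.26, 18.46 and 17.28 FPKM in hFGF19 libraries and at 16.09, 17.74, 16.12 and 18.27 FPKM in control libraries. Both genes had overlapping groups, with log2 changes of 0.02 (FADS1) and 0.05 (ELOVL6). ACLY, which makes acetyl-CoA from citrate, varied by 17.3% in hFGF19 and 15.3% in control cells, at means of 216.0 and 224.3 FPKM. FADS2, the other polyunsaturated desaturase of the list, was at 15.57 ± 0.921 FPKM in hFGF19 and 16.13 ± 1.25 FPKM in control cells (SD, n = 4 each). FADS1 and FADS2 share 490 exon bases on opposite strands, with 46624 reads for FADS1 and 3595 for FADS2 over 8 libraries.

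Set side by side, both branches had medians near 0, -0.02 for the 18 sterol synthesis enzymes and -0.04 for the 8 fatty acid synthesis genes. Of the enzymes 8 were higher and 10 lower in hFGF19 cells, and of the fatty acid genes 2 were higher and 6 lower. Without hFGF19 replicate 3, 4 fatty acid genes were higher and 4 lower, with a median of 0.01, and of the 5 sterol sensing genes 4 were higher and 1 lower, with a median of 0.03. Scaling moved the counts too. The sterol enzymes had 12 of 18 lower after rescaling to TPM, 11 after quantile normalization and 9 with voom, and the fatty acid genes had 6, 6 and 5 of 8 lower. Over all genes tested the share with a lower mean moved likewise, from 56.3% as deposited to 61.7% with TPM, 51.5% with quantile normalization and 51.5% with voom. Fatty acid synthesis genes took up 0.565% ± 0.0442 of all reads in hFGF19 and 0.588% ± 0.0414 in control cells (SD, n = 4 each). Sterol synthesis enzymes took up 0.218% ± 0.00350 in hFGF19 and 0.222% ± 0.00294 in control cells (SD, n = 4 each). In both groups the spread of the fatty acid share exceeded the distance between the group means. For the sterol enzymes the distance was larger than either SD, with hFGF19 libraries 2, 3 and 4 below all 4 controls and hFGF19 library 1 within the control range.

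Between libraries the branches varied to unlike extents, which is given here as a description, with no test of the difference between them. The fatty acid share was 0.612% and 0.588% in hFGF19 libraries 1 and 4 against 0.547% and 0.512% in hFGF19 libraries 2 and 3. In controls it was 0.630% and 0.614% in libraries 1 and 4 against 0.542% and 0.564% in libraries 2 and 3. The share of the sterol enzymes moved less, at 0.223% and 0.216% in hFGF19 libraries 1 and 4 against 0.216% in each of libraries 2 and 3, and at 0.222% and 0.226% in control libraries 1 and 4 against 0.221% and 0.219% in libraries 2 and 3. The summed share of the 11 enzymes from squalene onward had the same order, with 0.142% and 0.137% against 0.135% and 0.132% in hFGF19 libraries, and 0.140% and 0.142% against 0.137% and 0.138% in control libraries. The 7 mevalonate genes did not, at 0.0816% and 0.0794% against 0.0804% and 0.0837% in hFGF19 libraries. In control libraries they were at 0.0816% and 0.0848% against 0.0845% and 0.0816%. Per gene, the median log2 difference of the 11 was 0.01 in each group. MSMO1 was the 1 of the 11 with libraries 1 and 4 all above, and 2 had the reverse order. Gene by gene, 8 of the 34 members had libraries 1 and 4 all above libraries 2 and 3, over both groups. That is a larger share than the 11.3% of all genes tested. The 8 were ACLY, SCD and FADS1 of the fatty acid genes, SREBF1, SREBF2 and INSIG1 of the sterol sensing genes, NPC1, and MSMO1 as the 1 sterol enzyme. TM7SF2 and NSDHL had the reverse order, a smaller share than the 11.4% of all genes. The difference of libraries 1 and 4 from 2 and 3 was 0.42 (log2) in hFGF19 and 0.38 in control cells for MSMO1, and -0.19 in hFGF19 and -0.17 in control cells for NSDHL. For ACLY it was 0.36 in hFGF19 and 0.38 in control cells, larger than the change of any member between the treatment groups. The labels do not say what a replicate number stands for. In hFGF19 cells libraries 1 and 4 were also the deeper ones, whereas in controls library 1 had the fewest reads, 17778831, and library 4 the most, 20133446. The part of depth in this pattern was not tested.

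**Figure D4:**
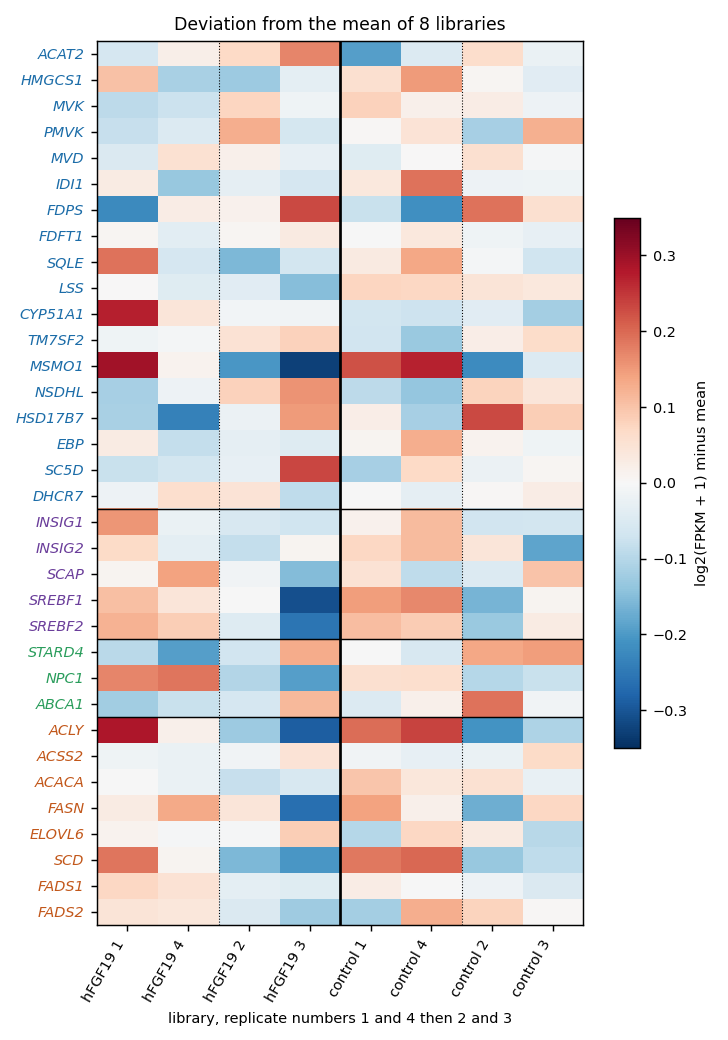
Deviation of log2(FPKM + 1) in each library from the gene's mean over 8 libraries (colour, red above and blue below), with the 4 hFGF19 libraries left and the 4 control libraries right, each ordered by replicate numbers 1, 4, 2 and 3. MSMO1, SREBF1, SREBF2, ACLY and SCD are mostly red in libraries 1 and 4 and blue in libraries 2 and 3 of both groups, and FDPS and NSDHL run the other way in most libraries.

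SREBF1 and SREBF2 varied together across the 8 libraries. With group means removed, the Pearson correlation of their log2(FPKM + 1) values was 0.96. The members next most like SREBF1 were ACLY (0.90) and MSMO1 (0.89), and those most like SREBF2 were NPC1 (0.91) and FASN (0.90). At the other end ABCA1 stood at -0.93 with each of them, and FDPS at -0.92 with SREBF1 and -0.86 with SREBF2. HMGCS1 (0.36 with SREBF1) and SQLE (0.47 with SREBF1) followed them only loosely. Further sterol enzymes stood on both sides of SREBF1, LSS at 0.87, and NSDHL (-0.90), HSD17B7 (-0.89), ACAT2 (-0.86) and TM7SF2 (-0.75) at the other end. The correlations were computed for members only, so how common such values are among all genes is not given. All points share the same 8 libraries and their depths, so the values describe these libraries.

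A further 38 genes of lipid metabolism were read in the same fit. Of the 36 above the filter 0 were called in either direction, 14 had a higher and 22 a lower mean in hFGF19 cells, and the median log2 change was -0.03. LPIN1, a phosphatidate phosphatase of triglyceride synthesis, was at 66.41, 63.03, 63.40 and 66.97 FPKM in hFGF19 libraries and at 72.99, 69.39, 68.77 and 72.97 FPKM in control libraries. SLC25A1, the citrate carrier that supplies ACLY, was at 231.5, 256.2, 237.3 and 244.8 FPKM in hFGF19 libraries and at 257.8, 260.4, 276.2 and 256.5 FPKM in control libraries. PNPLA3, a lipid droplet hydrolase, was at 36.71, 36.29, 34.01 and 36.48 FPKM in hFGF19 libraries and at 42.92, 37.22, 36.95 and 38.81 FPKM in control libraries. For these 3 of the 36 genes, named because they separated, all hFGF19 values lay below all control values. That share is larger than the 1.65% of all genes tested, and the difference of the shares was not tested. The log2 changes were -0.13 (LPIN1), -0.12 (SLC25A1) and -0.11 (PNPLA3). The reverse separation was seen for 0 of the 36, against 1.48% of all genes tested. None of the 3 was called (adjusted p = 0.9998 each, limma, and 0.626 to 0.734 with the block). ACSL4, which activates arachidonic acid, had the largest upward log2 change of these genes (0.12), at 904 ± 53.8 FPKM in hFGF19 and 833 ± 52.3 FPKM in control cells (SD, n = 4 each), and was not called either.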

How the data were processed

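Poly(A) RNA of 8 HCT116 samples, 4 given hFGF19 and 4 controls, was sequenced as paired ends, per the labels. The authors deposited FPKM values, 1 per gene and sample. The submitters' processing notes name HISAT2 2.0, StringTie 1.3.0 and hg19. The counting tool and its strand setting are not given in the sources. Of 59641 identifiers 58676 were in GENCODE 29, an annotation of GRCh38, so file coordinates are not used.

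With the mean transcript length of GENCODE 29 as gene length, which held for 100.0% of 19700 genes with several transcripts within 2 bases, 100.000% of nonzero FPKM values were whole read numbers, to within 0.02 reads, and recovered reads made up 100.0% of each library total. PCR copies are not known to have been removed, so reads are not independent molecules.

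log2(FPKM + 1) was fitted in R 4.3.3 with limma 3.58.1 (moderated test, two-sided, with a variance trend) for 14100 genes averaging at least 1 FPKM, hFGF19 minus control, adjusted by Benjamini-Hochberg and called below 0.05. Same-numbered libraries of the groups deviated together (correlations of 0.30, 0.17, 0.17 and 0.11), so a replicate block was run as an alternative and is given where it bears on a value. Pairs of unlike number reached 0.41, 0.17, 0.44 and 0.19, and went as low as -0.45, so the likeness is not particular to the number. Other alternatives were pseudocounts of 0.5 and 0.1, filters, TPM, quantile normalization, voom with TMM on recovered reads, subsets of replicate numbers and leaving out each library. The members and lists were chosen with earlier results of these data known. Values in every library are given for fixed regulators and rate-setting enzymes, members with groups apart, the 2 largest changes each way among the enzymes of each branch and the highest and lowest member. Other genes were named after their values were seen. Overlaps were computed with bedtools 2.31.1.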

Additional observations from a re-analysis of the deposited data

Results flagged for a closer look

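In 4 of the 68 groups of 4 libraries examined for the 34 members, 1 library stood off from its 3 replicates: the ratio of its gap to the range exceeded the 95% limit of Dixon's test. About 3.4 such groups come by chance. PMVK was at 25.78 FPKM in hFGF19 replicate 2 and at 22.21 to 22.73 FPKM in the other hFGF19 libraries (ratio 0.853). SC5D, the lathosterol desaturase, was at 42.65 FPKM in hFGF19 replicate 3 and at 34.16 to 35.36 FPKM in the others (ratio 0.859). ACSS2 was at 161.6 FPKM in hFGF19 replicate 3 and at 153.6 to 154.9 FPKM in the others (ratio 0.841), and control replicate 3 was also the highest control. EBP, the sterol isomerase, was at 78.98 FPKM in control replicate 4 and at 71.59 to 72.83 FPKM in the other controls (ratio 0.832).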

How the results depend on the processing

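Over the 18 alternatives, 0 of the 34 members and 0 of the other lipid genes were called, and the lowest adjusted p of a member was 0.700 (LSS, limma with the replicate block). The block therefore changed no call of a member. The share called over all genes is given here for the main fit and the block only. Among the 21 genes named with values in every library or as the largest change, 13 kept the sign of their log2 change in all 18 alternatives and 8 did not, with values between -0.23 and 0.23. The number of members with groups apart moved with the libraries used. With replicates 1 and 4 only it was 4 higher and 9 lower (11.8% and 26.5% of members, against 15.6% and 18.5% of all genes tested). With replicates 2 and 3 only it was 4 higher and 8 lower (11.8% and 23.5%, against 14.1% and 19.7%), since 2 against 2 libraries separate more easily. Leaving out 1 library gave 1 higher throughout (2.94% of members, against 2.05% to 3.47% of all genes). It gave 1 to 3 lower (2.94% to 8.82% of members), against 2.59% to 3.95% of all genes lower in these fits. There were 3 lower without hFGF19 replicate 1 or hFGF19 replicate 3, and 2 without control replicate 3. The median of the fatty acid genes lay between -0.07 and 0.01 when 1 library was left out, and that of the sterol enzymes between -0.03 and 0. CYP51A1, with as few as 183 reads in a library, is the member that depth limits most.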
